A study of Mus musculus with 8 samples.

Results

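Potassium channel subunits were examined in tubules sorted from kidneys of TBC1D4-deficient and wild-type mice, all from the distal convoluted tubule (DCT), a segment that follows the loop of Henle. The genes were chosen by name: every gene whose symbol starts with Kcn and that has a probe set carrying exactly 1 symbol, without Kcnj1, Kcnj10, Kcnj16 and Kcna1. This gave 83 of the 18782 genes with such a probe set, read by 85 probe sets, and Kcnd3 and Kcnh8, the only genes with a pair of probe sets, are represented by the brighter one. All 8 samples came from male C57/Bl6 mice aged 8 weeks that carried EGFP under the parvalbumin promoter on 1 allele (PV-EGFP wt/tg), a promoter active in the early DCT. The fluorescent tubules were collected by large-particle sorting (COPAS), and the groups were TBC1D4 KO (4 arrays) and TBC1D4 WT (4 arrays). TBC1D4 is a GTPase-activating protein for Rab proteins, which direct vesicle traffic. The labels do not say whether each sample came from its own animal or from pooled animals, so a p-value here reflects only how these 8 samples scatter, which may be technical.

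Potassium channels let potassium ions leave or enter a cell along their electrochemical gradient. In the DCT, inward rectifier channels of the basolateral membrane recycle the potassium brought in by the sodium pump and set the membrane voltage, on which chloride exit and the activity of the sodium chloride cotransporter depend. The Kcn genes encode several families: voltage-gated pores with their auxiliary subunits, inward rectifiers, tandem-pore (2-pore) channels that carry a background leak, and channels opened by intracellular calcium or sodium. The comparison between genotypes asks which DCT transcripts depend on TBC1D4.

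The arrays matched their labels and carried DCT markers strongly, beside markers of other segments. The log2 mean of Tbc1d4 was 6.75 in wild-type arrays but 2.48 in those of TBC1D4-deficient mice, a difference of -4.27 (limma adjusted p = 6.35e-08). All 12 measured DCT markers, Slc12a3 and Pvalb among them, lay above the background threshold defined in the next paragraph, with a summed intensity of 13869 to 14222 in TBC1D4-deficient and 13881 to 14331 in wild-type arrays. Markers of other tubule segments were also above it: 10 of 10 for the thick ascending limb, 17 of 17 for the proximal tubule, 8 of 9 for the connecting tubule and principal cell and 12 of 12 for the intercalated cell. The same held for 13 of 13 endothelial markers, 8 of 11 of mural and mesangial cells, 5 of 10 of immune cells and 3 of 4 of podocytes. As lists, markers of these segments were dimmer than DCT markers. The median of the log2 means was 9.78 for DCT, 7.16 for proximal tubule and 5.40 for thick ascending limb markers. Their brightest members still reached the level of single DCT markers. Umod (thick ascending limb) averaged an intensity of 2228 and Slc34a1 (proximal tubule) 817, but Slc12a1 (thick ascending limb) only 181. Among DCT markers, Slc12a3 averaged 2884, Pvalb 842 and Trpm6 632. A channel signal on these arrays can therefore not be assigned to the DCT by its level alone. Array medians were nearly equal, with intensities of 8.41 to 9.03 (linear scale). The number of arrays limits the precision.

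Only a small part of the potassium channel repertoire was read clearly. The threshold was the 95th percentile of 1003 olfactory receptor probe sets, a family chiefly active in olfactory neurons, and stood at 2.49 on the log2 scale, an intensity of 5.63. By their mean over the 8 arrays, 37 of the 83 Kcn genes (44.6%) exceeded it, beside 65.6% of all 18782 genes. Of these 37, 27 lay within 1 log2 unit of the threshold and 5 between 1 and 2 units above it. Another 3 lay 2 to 4 units above it, and 2 lay more than 4 units above it. On single arrays, 30 of the 83 genes exceeded this value on all 8 and 35 on none. Against the 95th percentile of each array's own olfactory receptor probe sets, the counts were 26 and 40. A probe set's value carries the affinity of its own probes and is not corrected for transcript length, so the order of genes is an order of signal and not of transcript number.

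**Figure D1:**
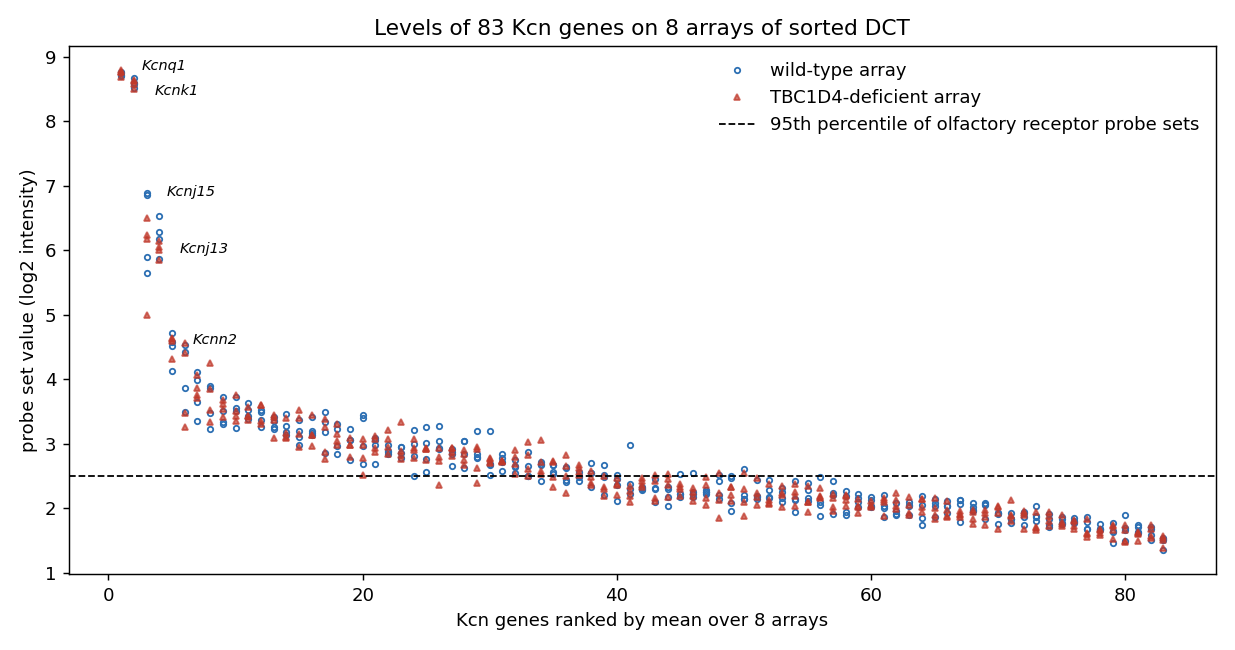
The 83 Kcn genes by rank of their mean (horizontal axis) and the log2 probe set intensity on each of the 8 arrays (vertical axis), with open circles for wild-type and filled triangles for TBC1D4-deficient arrays. Kcnq1 and Kcnk1 stand apart at the top, Kcnj15 and Kcnj13 follow, and most genes sit near the dashed threshold of 2.49.

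Families were set by gene name. Above the threshold were 14 of 33 voltage-gated pore genes, 5 of 12 auxiliary subunit genes (Kcnab, Kcne and Kcnip) and 4 of 12 inward rectifier genes. So were 9 of 14 tandem-pore genes and 5 of 11 genes of the calcium- or sodium-activated family (Kcnm, Kcnn, Kcnt and Kcnu). By its names this last family includes the beta subunit genes Kcnmb1, Kcnmb2 and Kcnmb4, which are not counted as auxiliary here, and Kcnu1. The remaining gene, Kcnrg, encodes a regulator of potassium channels and was below it. Near the threshold the division is fine. The last genes above it were Kcnh8 (2.67), Kcnh1 (2.58), Kcnh3 and Kcnab1 (2.54 each), and the first below it were Kcnc4 (2.49), Kcnip3 (2.40), Kcng4 and Kcnj4 (2.35 each). The count was 16 with the 99th percentile of olfactory receptor probe sets (3.18), 48 with their 90th percentile (2.25) and 51 with the 95th percentile of vomeronasal receptor probe sets (2.23).

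The promoters of Kcnj15 and Kcnk5 are shown because these are the genes whose levels varied most between arrays, as described with the values for single arrays. Both sequences are from RefSeq (GRCm38.p6), run from 250 bases before to 50 bases after a transcription start, and have CpG dinucleotides in capitals. Kcnj15 lies on the plus strand at chr16:95257308-95257607 and Kcnk5 on the minus strand at chr14:20181733-20182032, and each is printed 5′ to 3′ on its own strand.
Kcnj15: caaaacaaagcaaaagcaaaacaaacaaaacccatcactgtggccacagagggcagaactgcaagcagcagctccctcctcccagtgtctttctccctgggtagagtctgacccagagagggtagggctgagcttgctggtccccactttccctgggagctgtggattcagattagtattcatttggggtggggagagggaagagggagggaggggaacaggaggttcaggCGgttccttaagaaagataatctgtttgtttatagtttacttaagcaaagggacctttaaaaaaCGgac
Kcnk5: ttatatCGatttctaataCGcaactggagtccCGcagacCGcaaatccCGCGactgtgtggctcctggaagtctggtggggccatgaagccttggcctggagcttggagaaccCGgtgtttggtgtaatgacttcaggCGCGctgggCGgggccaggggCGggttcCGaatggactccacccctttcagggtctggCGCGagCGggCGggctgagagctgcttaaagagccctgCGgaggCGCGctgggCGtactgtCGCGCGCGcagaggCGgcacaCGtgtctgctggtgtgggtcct
The Kcnj15 window held 2 CpG and 49.7% G+C, and the Kcnk5 window 26 CpG and 63.7% G+C. RefSeq promoters were matched for 64 of the 83 genes (86 windows of 300 bases), with a median of 13 CpG over 31 windows of genes above the threshold, 9 over 55 windows of those not above it and 7 over all 32851 windows of the table. The letters TATAAA, on either strand, were in 3 of the 31 windows and in 13.6% of all windows, and were present in Kcnj15 and Kcnj13. GTTAAT, the core of an HNF1 site, was in 2 of the 31 and in 7.1% of all windows, and CAAAGTCCA, a consensus for HNF4, in 0 of the 31 and in 0.475% of all. None of the 3 motifs is contained in another. Neither GTTAAT nor CAAAGTCCA was in the windows of Kcnj15 and Kcnk5, which says only that these letters are not in them.

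Kcnq1, a voltage-gated pore subunit that assembles with small Kcne subunits, had the highest signal of the 83 genes and was among the steadiest. Its intensity was 418, 436, 429 and 420 in wild-type replicates 1 to 4 and 412, 436, 444 and 433 in TBC1D4-deficient replicates 1 to 4. The groups overlapped fully, with a log2 difference of 0.02 (95% interval -0.10 to 0.14). The SD over the 8 arrays was 0.04, against a median of 0.12 over all 23039 probe sets tested.

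Kcnk1, a tandem-pore background channel subunit, also varied little between arrays. The wild-type intensities were 385, 383, 407 and 368 and the TBC1D4-deficient ones 398, 382.5, 360 and 392.5. The log2 difference was -0.01 (-0.14 to 0.13), and the SD over the 8 arrays was 0.06. For both genes the interval excludes a change of 1.5-fold in either direction.

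Other voltage-gated pore genes gave weak signals. Kcna3, a channel best known from lymphocytes, ranged from 10.2 to 17.2 in wild-type arrays and from 13.1 to 16.7 in TBC1D4-deficient arrays. Kcnd3, a subunit of transient outward currents, ranged from 9.32 to 14.9 and from 10.1 to 19.0, and its dimmer probe set stood at a mean of 2.55. Kcnh2, the pore of the delayed rectifier that repolarizes the heart, had a mean of 3.51 ± 0.20 in wild-type arrays and of 3.51 ± 0.17 in TBC1D4-deficient ones (log2, SD, n = 4 each). Kcns3, an electrically silent subunit that modifies other channels, averaged 3.49 ± 0.11 and 3.45 ± 0.09. The groups overlapped for all 4 genes, and their log2 differences were 0.08, 0.12, 0.0058 and -0.04.

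Further voltage-gated genes lay closer to the threshold. Kcns1, another silent subunit, had a log2 difference of -0.15 (-0.51 to 0.21), and Kcnq3, a subunit of the neuronal M current, of -0.10 (-0.33 to 0.13). Kcnh8, Kcnh1 and Kcnh3, relatives of the ether-a-go-go channel, stood at 0.10, -0.05 and 0.03. The dimmer probe set of Kcnh8 was below the threshold, with a mean of 1.98. Among genes not above the threshold, Kcnc4 stood at -0.07, Kcng4 at -0.01 and Kcna5 at 0.05. In all, 8 of the 14 voltage-gated pore genes above the threshold were higher and 6 lower in TBC1D4-deficient arrays. The 95% interval lay inside 1.5-fold for all 14, beside 96.2% of all probe sets above the threshold. None of the 14 passed a limma adjusted p of 0.05, which 0.00434% of the 23039 probe sets tested did.

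Among auxiliary subunits the difference with the smallest unadjusted p of all 83 genes was found. Kcne1 (minK), a single-span subunit that slows the opening of Kcnq1 channels, had intensities of 7.64, 8.19, 9.70 and 7.54 in wild-type replicates 1 to 4. In TBC1D4-deficient replicates 1 to 4 they were 6.62, 7.60, 5.15 and 6.91. The TBC1D4-deficient values were lower on the whole, but replicate 2 exceeded wild-type replicate 4, so the groups overlapped. The log2 difference was -0.34 (95% interval -0.61 to -0.06), with an unadjusted p of 0.0202 and a limma adjusted p of 0.9999. It was -0.58 within the arrays whose description opens with a number from 5 to 8, and -0.10 within those numbered 9 to 12, and in TBC1D4-deficient replicate 3 the probe set was below the threshold, at 2.37 on the log2 scale. What these numbers stand for is not stated in the labels, and each set holds 2 arrays of each genotype. Without TBC1D4-deficient replicate 3 the difference was -0.23.

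No auxiliary subunit passed the adjusted test. An unadjusted p below 0.05 was found for 1 of the 83 Kcn genes (1.2%), against 2.9% of all probe sets tested. Other auxiliary subunits showed smaller differences, with Kcnab1, a cytosolic beta subunit, at 0.10 (-0.04 to 0.24) and Kcnip3, a calcium-binding subunit below the threshold, at -0.14 (-0.37 to 0.09). Of the 5 auxiliary genes above the threshold 2 were higher and 3 lower.

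Inward rectifiers outside the excluded genes were led by Kcnj15 and Kcnj13. Kcnj15 encodes a subunit that can pair with the product of Kcnj16. Its intensity was 50.2, 59.8, 116 and 119 in wild-type replicates 1 to 4 and 31.8, 90.8, 72.0 and 75.6 in TBC1D4-deficient replicates 1 to 4. The range within each genotype was more than the distance between them, and TBC1D4-deficient replicate 1 was the lowest array. The log2 difference was -0.35 (-1.15 to 0.46; limma adjusted p = 0.9999), and it was -0.02 without TBC1D4-deficient replicate 1. The interval therefore does not exclude a change of 1.5-fold.

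Kcnj13, an inward rectifier of transporting epithelia such as the choroid plexus, was read at 92.2, 58.3, 77.5 and 72.5 in wild-type and at 70.8, 66.0, 64.2 and 57.6 in TBC1D4-deficient arrays. Wild-type replicate 1 was the highest and the groups overlapped. The log2 difference was -0.20 (-0.48 to 0.08), and -0.10 without wild-type replicate 1. Kcnj14, a weakly read inward rectifier, ranged from 6.40 to 10.9 in wild-type and from 5.74 to 8.39 in TBC1D4-deficient arrays (log2 difference -0.28, -0.68 to 0.11). It was -0.50 within arrays 5 to 8 and -0.07 within arrays 9 to 12.

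Kcnj11, the pore of ATP-sensitive potassium channels, had a mean of 3.47 ± 0.19 in wild-type arrays and of 3.56 ± 0.12 in TBC1D4-deficient ones (log2, SD, n = 4 each). Other inward rectifiers were not above the threshold. Kcnj8, the vascular pore of ATP-sensitive channels, had a mean of 2.24, Kcnj3, a subunit of G protein-gated channels, of 2.23, and Kcnj2, a strong rectifier of muscle and endothelium, of 1.63. Kcnj4, another strong rectifier, stood at a log2 difference of -0.25 (-0.58 to 0.09). Of the 4 inward rectifiers above the threshold 1 was higher and 3 lower. For only 2 of the 4 did the interval lie inside 1.5-fold, beside 96.2% of all probe sets above the threshold.

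Tandem-pore genes had the largest share above the threshold. After Kcnk1 came Kcnk5, a channel opened by alkaline pH and known from the proximal tubule. Its wild-type intensities in replicate order were 11.2, 14.6, 21.3 and 23.2, and the TBC1D4-deficient ones 9.60, 23.5, 11.2 and 21.2. Each genotype held arrays at both ends of the range, and the log2 difference was -0.15 (-0.85 to 0.55), which ranged from -0.36 to 0.07 when single arrays were left out. Kcnk3, an acid-sensitive background channel, had a mean of 3.26 ± 0.15 in wild-type arrays and of 3.19 ± 0.15 in TBC1D4-deficient ones (log2, SD, n = 4 each). Of the 9 tandem-pore genes above the threshold 6 were higher and 3 lower, with 0 past the threshold of 0.05.

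Channels gated by calcium or sodium were led by Kcnn2, a small-conductance calcium-activated channel. It ranged from 17.5 to 26.2 in wild-type and from 19.8 to 24.9 in TBC1D4-deficient arrays (log2 difference 0.06, -0.22 to 0.33). Its relatives Kcnn1 and Kcnn3 stood at 0.05 (-0.15 to 0.26) and 0.12 (-0.07 to 0.30), and Kcnn4, of intermediate conductance, at 0.11 (-0.17 to 0.39). Kcnt1, a sodium-activated channel, ranged from 6.82 to 9.21 in wild-type and from 5.26 to 7.73 in TBC1D4-deficient arrays (log2 difference -0.18, -0.49 to 0.12). Of these 5 genes above the threshold 4 were higher and 1 lower.

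The pore of the large-conductance calcium-activated channel was not read above background. Kcnma1 had a mean of 1.69 ± 0.04 in wild-type arrays and of 1.63 ± 0.04 in TBC1D4-deficient ones (log2, SD, n = 4 each), near the median olfactory receptor probe set (1.59). Kcnmb4, a beta subunit of this channel, averaged 2.32 ± 0.17 and 2.19 ± 0.29. Over all Kcn names, 2 probe sets that carry several symbols were not used. A low value on a probe set cannot be told from a probe set that reads poorly. Lrrc52, a gamma subunit of this channel family and of the sperm channel Kcnu1, was read at 7.92, whereas Kcnu1 was at 1.63.

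Across genotypes, none of the 83 Kcn genes passed the test. None reached a limma adjusted p of 0.05, where 0.00434% of 23039 probe sets did (Tbc1d4 alone), and all 83 had an adjusted p of 0.9999. Of the 83 genes 38 were higher and 45 lower, with a median log2 difference of -0.0076, beside a median of -0.0017 over all probe sets tested. Among the 37 above the threshold 21 were higher and 16 lower, with a median of 0.01. The 95% interval lay inside 1.5-fold for 79 of the 83 (95.2%, against 97.4% of all probe sets tested). It did so for 33 of the 37 (89.2%, against 96.2% of all probe sets above the threshold). All 46 genes not above the threshold were inside, where background limits what a difference can show. The exceptions among the Kcn genes were Kcnj15, Kcnk5, Kcnj14 and Kcne1.

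Groups that did not overlap were found for 1 of the 83 genes, against 1.85% of all probe sets. That gene, Kcne2, a subunit related to Kcne1 and named here after its values were known, was below the threshold at intensities of 4.86 to 5.00 in wild-type and 5.01 to 5.51 in TBC1D4-deficient arrays.

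**Figure D2:**
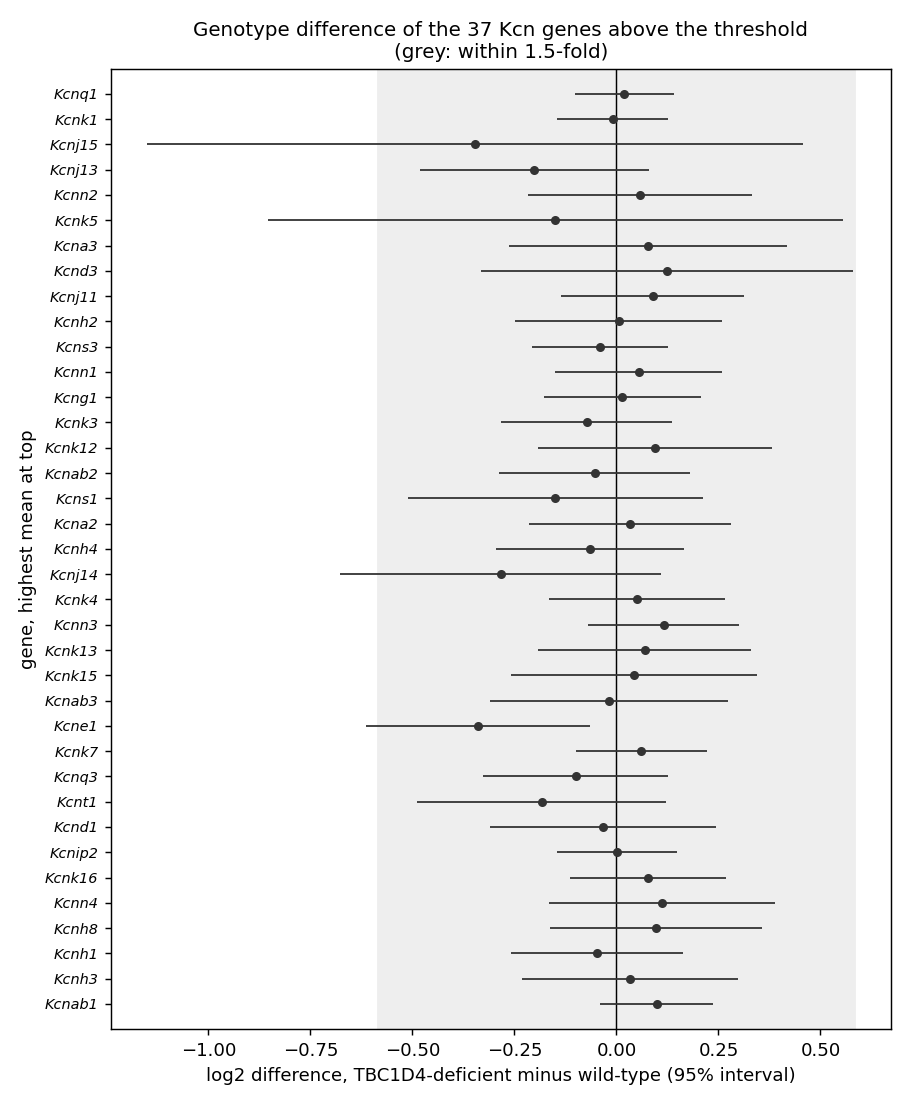
Log2 difference between TBC1D4-deficient and wild-type arrays (horizontal axis) for the 37 Kcn genes above the threshold, ordered by mean signal (vertical axis), with points for the estimate, bars for the 95% interval of the limma fit and grey for changes within 1.5-fold. Only the bar of Kcne1 leaves out 0, and the bars of Kcnj15, Kcnk5, Kcnj14 and Kcne1 reach beyond 1.5-fold.

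Genes that work with these channels gave no call either. Of 9 measured partner subunits with other names, 4 were above the threshold, 5 were higher, 4 lower and 0 past an adjusted p of 0.05. Lrrc52 stood at a log2 difference of 0.08 (-0.11 to 0.26) and Amigo1, a partner of Kv2 channels, at 0.03. Lrrc26, a gamma subunit below the threshold, stood at 0.16 (0.0074 to 0.31) and Abcc8, a sulfonylurea receptor, at -0.18 (-0.38 to 0.02). Of 12 other measured genes of potassium transport, 8 were higher and 4 lower with 0 called, and Slc12a2 and Slc12a7, cotransporters of potassium and chloride, stood at 0.12 and 0.07. Kcnj1, Kcnj16 and Kcnj10, the excluded inward rectifiers, averaged 10.60, 10.00 and 8.78 with differences of -0.02, 0.03 and 0.07, and Kcna1, the excluded voltage-gated gene, was below the threshold at 2.25. Of 11 measured regulators of channels, 7 were higher and 4 lower with 0 called, and Wnk1 stood at -0.03.

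The spread between arrays differed widely among the Kcn genes. The SD over the 8 arrays was 0.64 for Kcnj15 and 0.54 for Kcnk5, followed by 0.34 for Kcnd3, 0.33 for Kcnj14, 0.27 for Kcns1 and 0.26 for Kcne1. The median was 0.17 over the 37 Kcn genes above the threshold and 0.12 over all 15089 probe sets above it.

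**Figure D3:**
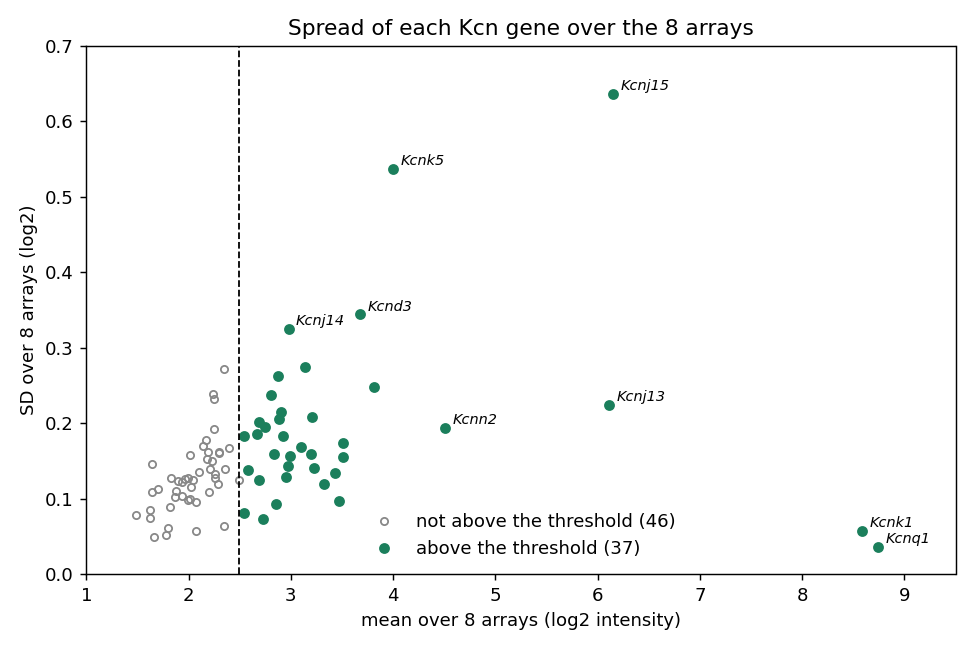
SD of the log2 values over the 8 arrays (vertical axis) against their mean (horizontal axis) for the 83 Kcn genes, filled for the 37 above the threshold (dashed line) and open for the others. Kcnj15 and Kcnk5 lie above all others, and the strongest signals, Kcnq1 and Kcnk1, have SDs of 0.04 and 0.06.

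Kcnj15 followed the proximal tubule markers of the same arrays almost exactly. The mean of 17 measured proximal tubule markers, each taken relative to its own 8-array mean, was -0.56, -0.25, 0.68 and 0.75 in wild-type replicates 1 to 4 and -1.08, 0.25, 0.05 and 0.15 in TBC1D4-deficient replicates 1 to 4. The 8 arrays had the same rank order in Kcnj15 as in this mean (Spearman's rho = 1, exact permutation p = 4.96e-05, adjusted 0.0165). Pearson's r was 0.996 (n = 8, exact permutation p = 2.48e-05, the smallest that 40320 orders can give, 2-sided). After Benjamini-Hochberg adjustment over 333 relations, those of 37 genes with 9 marker lists, p was 0.00826, and no other relation passed. An unadjusted p below 0.05 was found for 15 of the 333.

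The value of r was similar without the extreme arrays and within genotypes. Without the 2 arrays farthest from the median, TBC1D4-deficient replicate 1 and wild-type replicate 1, r was 0.989 (exact permutation p = 0.00139, the smallest that 6 arrays can give; adjusted 0.463). Leaving out any single array gave 0.993 to 0.998, and deviations from the genotype means gave 0.996. The slope was 1.03 log2 units of Kcnj15 per log2 unit of the marker mean. In bulk samples fewer cells of a type and less RNA per cell cannot be told apart.

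The group means of the same markers differed in the direction of Kcnj15. All 17 markers were lower in TBC1D4-deficient arrays, by a median log2 difference of -0.29, with 0 past the threshold of 0.05. Their summed intensity was 1609 to 4080 there and 2267 to 5511 in wild-type arrays. The markers varied together across arrays, so 17 of 17 is not a count of independent results. Their mean was lowest in TBC1D4-deficient replicate 1 (-1.08). The other TBC1D4-deficient arrays (0.05 to 0.25) lay within the wild-type range (-0.56 to 0.75). With the marker mean as a covariate, a choice made after the data were examined, the log2 difference of Kcnj15 was -0.03 in place of -0.35. Because Kcnj15 follows this mean closely within genotypes, the adjusted value restates that relation and is no separate test. With a second number in the sample descriptions as a covariate, split into its lower and higher range, the Kcnj15 difference was also -0.03. That split nearly follows genotype. All TBC1D4-deficient arrays but replicate 2 fall in the lower range, and all wild-type arrays but replicate 2 in the higher. Genotype and this number can therefore hardly be told apart.

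Kcnk5 showed the same tendency with more scatter. Its r with the proximal tubule mean was 0.851 (rho = 0.857; exact permutation p = 0.00459 and 0.0107), which did not pass after adjustment over 333 relations (0.595 and 0.767). It was 0.653 without the 2 farthest arrays and 0.779 to 0.939 when single arrays were left out. TBC1D4-deficient replicate 3 had a marker mean of 0.05 but a Kcnk5 intensity of 11.2, close to the low end. With the marker mean as a covariate the genotype difference of Kcnk5 turned from -0.15 to 0.09.

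No relation to the proximal tubule mean passed for the other genes. Kcnh2 ran opposite to it, with an r of -0.795 (rho = -0.833; exact permutation p = 0.0182 and 0.0154, adjusted 0.615 and 0.767), and of -0.718 without the 2 farthest arrays. It was, with Kcnj15 and Kcnk5, 1 of 3 genes with an unadjusted p below 0.05 for this list. The r with the proximal tubule mean was 0.416 for Kcnq1, -0.197 for Kcnk1 and -0.112 for Kcnj13, with exact permutation p-values of 0.307, 0.641 and 0.789 (adjusted 0.945 to 0.947). These values rested on few arrays: without the 2 farthest, r was -0.761 for Kcnq1, 0.19 for Kcnk1 and 0.878 for Kcnj13, with adjusted p of 0.803 or more. Kcne1, although known from the proximal tubule, had an r of 0.32 (exact permutation p = 0.444, adjusted 0.945), and its genotype difference was -0.32 with the marker mean as a covariate.

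Kcne1 moved more closely with markers of the connecting tubule and principal cell and of the intercalated cell, though neither relation passed. With the first, r was 0.857 (rho = 0.429; exact permutation p = 0.0221 and 0.299, adjusted 0.666 and 0.956), but -0.302 without TBC1D4-deficient replicate 3 and wild-type replicate 3, so it rested on those arrays. With the second, r was 0.677 (rho = 0.762; exact permutation p = 0.0453 and 0.0368, adjusted 0.945 and 0.767), and 0.515 without the 2 farthest arrays. Of the measured markers, 8 of 9 of the first list and 10 of 12 of the second were lower in TBC1D4-deficient arrays, with 0 past the adjusted threshold. The summed intensity of the first list was 1459 to 1673 in TBC1D4-deficient and 1557 to 1680 in wild-type arrays, and that of the second 995 to 1191 and 1002 to 1229. Their part in the difference of Kcne1 was not tested.

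**Figure D4:**
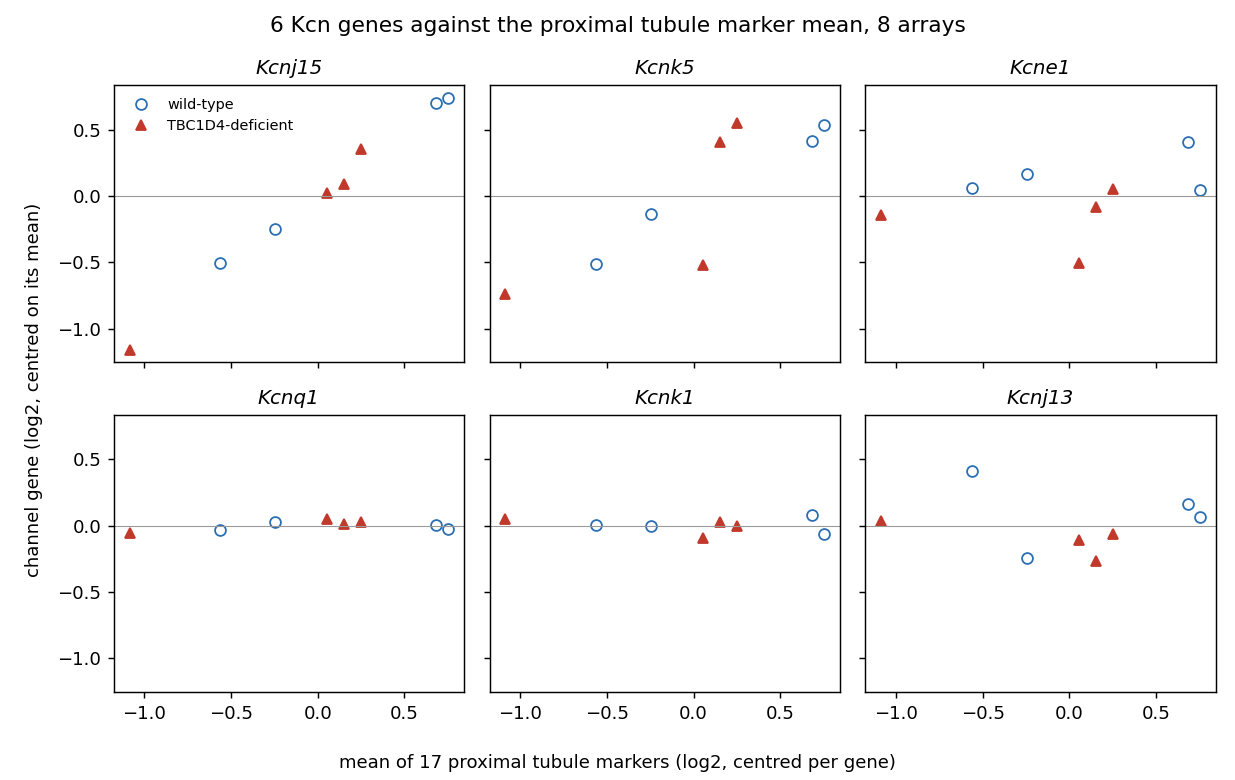
Values of 6 Kcn genes, each centred on its mean over the 8 arrays (vertical axis, log2), against the mean of 17 proximal tubule markers (horizontal axis, log2), with open circles for wild-type and filled triangles for TBC1D4-deficient arrays. Kcnj15 lies on a line with a slope of 1.03, Kcnk5 scatters around one, and Kcnq1 and Kcnk1 vary little on this axis.

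Other lists gave no relation that passed. Kcnj15 also had an r of 0.839 with the thick ascending limb markers (rho = 0.929; exact permutation p = 0.0102 and 0.00223, adjusted 0.615 and 0.372). It was 0.824 without the 2 farthest arrays (exact permutation p = 0.0444, adjusted 0.803) and 0.825 within genotypes. This list mean was moved most by Cldn10, whose SD over the 8 arrays was 0.56, against a median of 0.21 for its 10 markers. Like the proximal tubule mean, Cldn10 was lowest in TBC1D4-deficient replicate 1 (3.67) and highest in wild-type replicates 3 and 4 (5.44 and 5.12). The relation without Cldn10 was not tested. With the endothelial markers the r of Kcnj15 was 0.73 (exact permutation p = 0.0403, adjusted 0.945). The endothelial r was 0.106 without TBC1D4-deficient replicate 1 and wild-type replicate 3, so it rested on those arrays. All 13 endothelial markers were lower in TBC1D4-deficient arrays, by a median log2 difference of -0.27. An unadjusted p below 0.05 was found for 8 of them (61.5%, against 2.9% of all probe sets) and groups without overlap for 2 (15.4%, against 1.85%), with 0 past the adjusted threshold. Their summed intensity was 129.6 to 176 in TBC1D4-deficient and 175 to 205 in wild-type arrays, and their part in the differences of Kcn genes was not tested. Kcnk1 had an r of 0.823 with the connecting tubule and principal cell markers (exact permutation p = 0.0131, adjusted 0.615), which was 0.248 without the 2 farthest arrays. Kcnq3 had an r of 0.831 with the intercalated cell markers (exact permutation p = 0.015, adjusted 0.615), which was 0.563 without the 2 farthest arrays. The smallest exact permutation p was 0.0146 for the endothelial list, in a gene other than Kcnj15 (adjusted 0.615). It was 0.0116 for the mural and mesangial list (adjusted 0.615) and 0.00536 for the immune list (adjusted 0.595). With the 12 DCT markers, whose mean varied by an SD of only 0.02, the smallest unadjusted exact permutation p of the 37 genes was 0.052.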

How the data were processed

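The deposited table holds probe set intensities on a linear scale for 8 arrays and 28371 probe sets, with array medians that nearly agree. Per the submitters' processing notes the authors used Affymetrix Power Tools. Not given in the sources used here: its version, the summarisation and the normalization. Samples were grouped by title. Scaling arrays alike hides a shift shared by most genes, and background in dim probe sets understates fold changes.

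Values were taken to log2 with no pseudocount, filter or further normalization. The genotype comparison used a 2-sided limma fit (version 3.58.1, R 4.3.3, lmFit then eBayes) without covariates. It covered the 23039 probe sets that carry a symbol, and p-values were adjusted by Benjamini-Hochberg and called under 0.05. The annotation gave 21158 probe sets 1 symbol, 1881 several and 5332 none. Every one of the 83 symbols was found in RefSeq's mouse genes (GRCm38.p6) in its current form. Relations between channel genes and marker means were computed in Python 3.11.15 with numpy 2.4.6. Both steps were tested on simulated data.

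The members, gene lists and tests were chosen with earlier results of these data known. The genes named are the 12 with the highest mean, the 8 above the threshold with the smallest p, the 4 nearest the threshold on each side, the 6 with the largest SD, and 15 fixed by name; others are named from fixed lists. Alternatives were a further normalization, a pseudocount, the replicate number as a block, other rows, filters, priors and covariates, other thresholds, other marker scaling and leaving out arrays.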

Additional observations from a re-analysis of the deposited data

Results flagged for a closer look

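In 5 of 68 groups of 4 arrays (34 named genes, each genotype apart), 1 array stood far from the other 3. Chance flags about 1 in 20 groups. Kcnn2 was 4.31 (log2) in TBC1D4-deficient replicate 2, against 4.59 to 4.64 in the others. Kcnt1 was 3.20 in wild-type replicate 2, against 2.77 to 2.84. Wild-type replicate 3 was the high array for genes below the threshold. Kcnma1 was 1.75 there, against 1.67 in the others, Kcnj8 was 2.60, against 2.14 to 2.21, and Kcnj3 was 2.44, against 2.14 to 2.19. That array also had the highest marker means for the thick ascending limb, connecting tubule and principal cell, intercalated cell, endothelium, and mural and mesangial cell. The other marker lists, the proximal tubule among them, were highest on other arrays. A link between these genes and the markers was not tested.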

How the results depend on the processing

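The count of Kcn genes called stayed at 0, and Tbc1d4 stayed the 1 call, under every alternative run for them, with a Tbc1d4 difference of -4.35 to -4.18 when single arrays were left out. With the replicate block, 1 probe set and 0 Kcn genes were called and the median difference was 0.01, so the block changed no call. The titles share replicate numbers, but deviations of same-numbered arrays from their group means correlated at 0.402, -0.189, 0.039 and 0.012, not every array correlated best with its own number, and the labels name no shared source, so the numbers were not used as pairs. The number of Kcn genes above the threshold was 16 with the 99th percentile, 48 with the 90th, 51 with vomeronasal receptors and 36 to 38 without single arrays. The 1 relation to a marker mean (Kcnj15 with the proximal tubule) became 0 without the 2 farthest arrays, and 0 to 0 when single arrays were left out; with 6 and 7 arrays the smallest adjusted p a lone relation can reach is 0.463 and 0.0661, so those counts cannot pass. Of 772 differences of 34 named genes under alternatives, 0 passed, 4 moved by more than the replicate SD (Kcne1 and Kcna5 within either number set), and 58, in 17 genes, changed sign, none of them called in either fit. Of the 37 genes above the threshold, 27 lie within 1 log2 unit of it, where background limits what a difference can show.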
